A study of Homo sapiens with 4 samples.

Results

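The antioxidant and glutathione genes described here were a list of 42 genes chosen by name, and 40 of them had a probe on the array, out of 19483 genes that did. No probe was paired with AKR1C2, a hydroxysteroid reductase, or with PRDX2, a cytosolic peroxiredoxin. A gene with several probes was represented by the brightest on average. The cells were TR9_MeTA14 and TR15_MeTA5, both made from LNCaP, a prostate cancer cell line. Both carry the Tet repressor from pcDNA6/TR and, from pcDNA4/TO, a FLAG-tagged NFκB (AD)-MBD, a transcriptional activation domain joined to a methyl-CpG-binding domain, which tetracycline switches on and which is meant to activate genes with methylated promoters (MeTA). Each line was hybridized once after 4 days with tetracycline (+Tet) and once without it (-Tet), which gives 4 arrays, 1 for each condition. Both the -Tet and the +Tet cells carry the repressor and the construct, so tetracycline is the labelled difference within a line. TR9 or TR15 cells without NFκB (AD)-MBD were not analysed here, and the sources used here do not say whether each line is a single clone.

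Cells keep reactive oxygen and electrophiles in check mainly through glutathione and thioredoxin, both of which are kept reduced by NADPH. NRF2, the product of NFE2L2, is held for degradation by KEAP1 under resting conditions, and on oxidative stress it binds antioxidant response elements and turns on many of the genes in the list. Some genes of glutathione metabolism are known to be methylated at their promoters in prostate cancer, with GSTP1 as the textbook case.

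The sequences shown are the 250 bases before the RefSeq transcription start of 6 genes (assembly GRCh38.p14), because NFκB (AD)-MBD binds methylated CpG sites. Capitals mark every CpG. GSTM4, GSTM2, GSTM1 and GSTM3 lie in the same cluster on chromosome 1 but behaved differently, GPX3 was among the genes that tetracycline brought above background, and SOD3 had the higher signal with tetracycline in both lines.
GSTM4, chr1:109655849-109656098, plus strand: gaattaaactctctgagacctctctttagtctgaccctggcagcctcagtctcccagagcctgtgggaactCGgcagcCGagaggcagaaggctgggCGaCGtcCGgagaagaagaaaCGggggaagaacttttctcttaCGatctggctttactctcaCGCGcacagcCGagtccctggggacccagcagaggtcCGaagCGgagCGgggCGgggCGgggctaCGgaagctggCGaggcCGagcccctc
GSTM2, chr1:109667807-109668056, plus strand: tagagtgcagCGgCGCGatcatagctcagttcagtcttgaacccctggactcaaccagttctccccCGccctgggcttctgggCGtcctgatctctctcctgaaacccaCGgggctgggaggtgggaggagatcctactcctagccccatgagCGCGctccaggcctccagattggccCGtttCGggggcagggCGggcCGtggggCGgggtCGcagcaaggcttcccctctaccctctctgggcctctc
GSTM1, chr1:109687567-109687816, plus strand: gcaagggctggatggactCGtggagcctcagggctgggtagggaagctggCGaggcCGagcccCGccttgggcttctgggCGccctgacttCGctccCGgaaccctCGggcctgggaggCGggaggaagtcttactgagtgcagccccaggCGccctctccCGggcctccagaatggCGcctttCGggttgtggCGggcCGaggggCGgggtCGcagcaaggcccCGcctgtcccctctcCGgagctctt
GSTM3, chr1:109741039-109741288, minus strand: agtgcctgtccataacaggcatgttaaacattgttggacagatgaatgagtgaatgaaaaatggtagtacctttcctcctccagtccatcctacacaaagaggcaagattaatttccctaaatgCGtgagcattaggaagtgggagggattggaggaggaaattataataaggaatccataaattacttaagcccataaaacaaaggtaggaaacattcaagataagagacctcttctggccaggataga
GPX3, chr5:151020341-151020590, plus strand: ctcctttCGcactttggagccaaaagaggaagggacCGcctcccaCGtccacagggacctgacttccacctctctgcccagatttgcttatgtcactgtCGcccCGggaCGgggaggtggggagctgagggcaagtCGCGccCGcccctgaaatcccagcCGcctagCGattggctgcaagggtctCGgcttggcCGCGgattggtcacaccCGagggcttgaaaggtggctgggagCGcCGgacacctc
SOD3, chr4:24795323-24795572, plus strand: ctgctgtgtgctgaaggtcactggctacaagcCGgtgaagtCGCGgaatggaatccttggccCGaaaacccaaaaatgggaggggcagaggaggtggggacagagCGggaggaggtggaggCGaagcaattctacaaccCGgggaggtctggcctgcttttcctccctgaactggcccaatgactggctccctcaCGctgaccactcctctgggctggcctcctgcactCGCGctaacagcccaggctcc

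These stretches hold 18 CpG in GSTM4, 14 in GSTM2, 19 in GSTM1, 17 in GPX3 and 10 in SOD3, but a single CpG in GSTM3. The methylation of these sites was not analysed here.

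A signal is the deposited processed intensity of the probe on an array, after subtraction of the local background by the authors' scanner software. A fold change is the ratio of +Tet over -Tet signals after each array was divided by the 75th percentile of its own probes, so that +Tet signals were first lowered 1.26-fold in TR9_MeTA14 and 1.48-fold in TR15_MeTA5. Signals of different genes come from different probes and were not ranked against each other. A probe counted as measured when the scanner software marked it well above background, which held for 20566 to 24222 of the 34127 non-control probes on an array, and no spot was saturated. Where the dimmer array was not well above background, the fold is a lower bound. The dimmer signal was then raised, if need be, to the floor of its array, the dimmest signal that still counted as well above background, which was 15.5 without and 13.9 with tetracycline in TR9_MeTA14 and 15.4 and 19.2 in TR15_MeTA5. No fold is given where both arrays are below background or the bound is under 1. Genes at least 2-fold apart were called, which is the cut-off of the methods. With 1 array per condition there is no test within a line, and the only error at hand is technical: the SD of a log2 ratio read from probes with 10 spots was 0.087. It comes from the spread of spots within an array. This technical error thus leaves out differences between arrays, such as those of labelling and hybridization. Fewer cells that express a gene and less of its RNA per cell cannot be told apart in these bulk samples.

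In TR9_MeTA14, 5 of the 36 antioxidant and glutathione genes with a fold were at least 2-fold higher with tetracycline and 10 were at least 2-fold lower. The higher share was 13.9%, beside 16.8% of all genes, and the lower share was 27.8%, beside 15.1%. In TR15_MeTA5, 3 of 38 were at least 2-fold higher (7.89%, beside 9.77% of all genes) and 0 were at least 2-fold lower (2.21% of all genes). GSTM4, a glutathione S-transferase, was the only member at least 2-fold higher in both lines, that is 2.78% of the 36 members with a fold in both, while 8.2% of all genes were. No member was at least 2-fold lower in both lines, and 0.837% of all genes were. The median log2 fold change of the members was −0.27 in TR9_MeTA14 and −0.30 in TR15_MeTA5, against −0.06 and −0.16 over all genes. These medians depend on the scaling: with quantile normalization they were −0.05 and −0.12, against −0.14 and −0.15 over all genes.

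**Figure D1:**
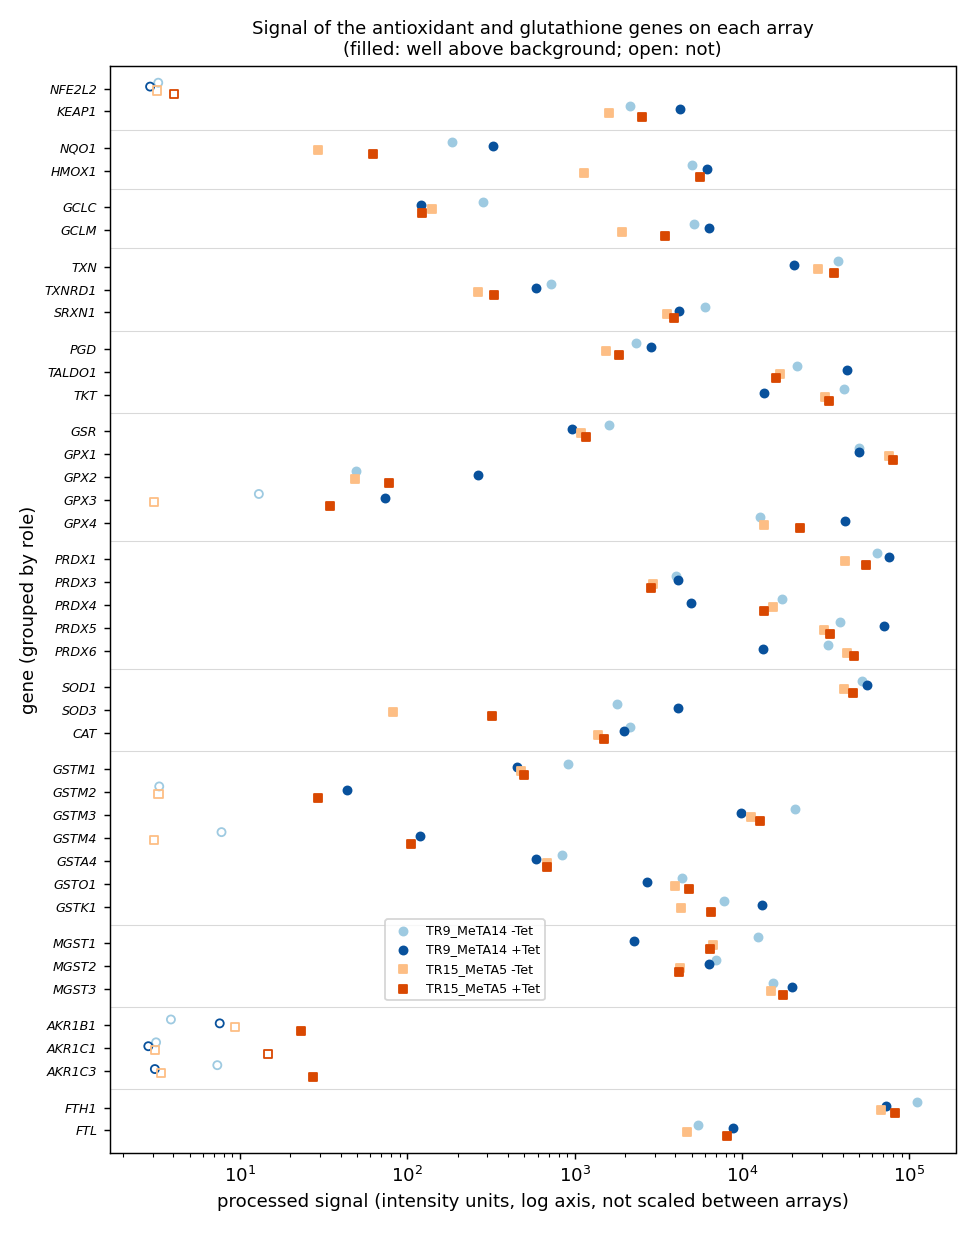
Processed signal of the 40 genes on the 4 arrays (log axis, intensity units, before scaling between arrays), grouped by role, with 1 point for each array. Filled points were well above background and open points were not. NFE2L2 and AKR1C1 are open on every array, while GSTM2, GSTM4 and GPX3 are open without tetracycline and filled with it in both lines.

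The effect over both lines was also tested with limma, with cell line as a block and Benjamini-Hochberg adjustment over 22810 probes. This test takes the lines as its replicates and has 1 residual degree of freedom before moderation. Its p-values set the mean change over both lines against the disagreement between them, moderated by the spread over all probes. Nothing says that the arrays come from repeated cultures, so the p-values do not measure the spread between cultures. Of 36 members tested, limma called 1 higher (GSTM4) and 0 lower at an adjusted p under 0.05, and 10 (27.8%) had an unadjusted p under 0.05, of which 4 were higher. GSTM4, GSTM2 and GPX3 entered the test through their +Tet arrays alone, and their estimates rest on -Tet signals below background. Over all probes, 2.6% were called higher and 0.0132% lower, and 19.5% had an unadjusted p under 0.05, that is 4448 probes of which 2622 were higher. The difference between the effects in TR9_MeTA14 and TR15_MeTA5 leaves no residual degree of freedom and was not tested.

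The regulators came first. The NFE2L2 probe was below the floor of every array, with signals of 3.24 and 2.9 without and with tetracycline in TR9_MeTA14 and 3.21 and 4.05 in TR15_MeTA5. Signals of all genes are given in that order. The NFE2L2 probe was not well above background on any array, and no fold is given. No other probe was paired with this gene, so its level could not be judged. KEAP1, the adaptor that hands NRF2 to a ubiquitin ligase, had signals of 2135, 4266, 1603 and 2522. After scaling, its log2 fold change was 0.67 in TR9_MeTA14 and 0.09 in TR15_MeTA5, under the 2-fold cut-off in both.

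Of the classical NRF2 targets, NQO1, a quinone reductase, gave 185, 323, 29.3 and 62.4. Both +Tet signals were above their -Tet signals, and the log2 fold changes of 0.47 and 0.53 were close to each other and under 2-fold. HMOX1, which breaks down heme, gave 4997, 6213, 1131 and 5634. The TR15_MeTA5 -Tet array was the lowest of the 4, both before and after scaling. HMOX1 was thus 3.37-fold higher with tetracycline in TR15_MeTA5 (log2 1.75) and equal within technical error in TR9_MeTA14 (log2 −0.02). Its 10 spots had an SD of 0.035 to 0.046 on the log2 scale on each array. Over both lines the limma estimate was 0.87 with a standard error of 0.50 and a Benjamini-Hochberg adjusted p of 0.377.

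Glutathione synthesis starts with glutamate-cysteine ligase, made of the catalytic subunit GCLC and the modifier subunit GCLM. GCLC had signals of 281, 120, 141 and 122. After scaling, each +Tet array lay below both -Tet arrays, and TR9_MeTA14 +Tet was the lowest. GCLC was 2.94-fold lower with tetracycline in TR9_MeTA14 (log2 −1.56) and 1.70-fold lower in TR15_MeTA5 (log2 −0.77), with an adjusted p of 0.208 by limma. GCLM gave 5151, 6319, 1913 and 3477, and its log2 fold changes of −0.04 and 0.30 did not follow those of GCLC.

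In the thioredoxin system, TXN, the small dithiol protein itself, had signals of 37446, 20514, 28546 and 35230. It was 2.30-fold lower with tetracycline in TR9_MeTA14 (log2 −1.20), and its log2 fold change was −0.26 in TR15_MeTA5. TXNRD1, the reductase that recharges thioredoxin, and SRXN1, which repairs overoxidized peroxiredoxins, were lower by less than 2-fold in both lines, at log2 −0.64 and −0.85 in TR9_MeTA14 and −0.27 and −0.42 in TR15_MeTA5. The TXN value in TR9_MeTA14 was 1.99-fold, just short of the cut-off, under the scaling that moved it most.

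Among the enzymes of the pentose phosphate pathway, which supplies NADPH, TKT (transketolase) gave 40527, 13579, 31433 and 33232. The TR9_MeTA14 +Tet array was the lowest, and the other 3 lay between 31433 and 40527. TKT was 3.76-fold lower with tetracycline in TR9_MeTA14 (log2 −1.91) and 1.40-fold lower in TR15_MeTA5 (log2 −0.48). TALDO1 (transaldolase), which works beside it, gave 21325, 42135, 16940 and 16049, with log2 fold changes of 0.65 in TR9_MeTA14 and −0.64 in TR15_MeTA5. Under 2 of 4 other scalings, TALDO1 reached 2-fold higher in TR9_MeTA14, at most 2.04-fold. PGD, the dehydrogenase that makes NADPH in this pathway, stayed near its -Tet level in both lines (log2 −0.03 and −0.30).

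GSR, which reduces oxidized glutathione, had signals of 1613, 966, 1092 and 1165. The TR9_MeTA14 +Tet array was the lowest, and GSR was 2.10-fold lower with tetracycline in this line (log2 −1.07), against log2 −0.47 in TR15_MeTA5. A further GSR probe gave a 1.99-fold lower signal in TR9_MeTA14, and 2 of 4 other scalings also left GSR under 2-fold.

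The glutathione peroxidases moved apart. GPX2, the gastrointestinal form, had signals of 49.2, 265, 48.9 and 77.5. The TR9_MeTA14 +Tet array was the highest of the 4. GPX2 was 4.28-fold higher with tetracycline in TR9_MeTA14 (log2 2.10), and its log2 fold change was 0.10 in TR15_MeTA5.

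GPX4, which reduces lipid peroxides in membranes, gave 12729, 41148, 13447 and 22257. It was 2.57-fold higher in TR9_MeTA14 (log2 1.36), and its log2 fold change was 0.16 in TR15_MeTA5. GPX3, the secreted form, gave 12.9, 73.4, 3.08 and 34.4. Neither -Tet array was well above background, and both +Tet arrays were.

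GPX3 was at least 3.77-fold higher with tetracycline in TR9_MeTA14 and at least 1.51-fold higher in TR15_MeTA5 (log2 at least 1.91 and 0.59). The limma estimate over both lines, which uses the signals below background as they are and is no bound, was 2.54 with a standard error of 0.43 and an adjusted p of 0.077. A further GPX3 probe was not well above background on any array. After background correction with normexp, the GPX3 bound in TR9_MeTA14 was 1.53-fold. GPX1, the ubiquitous cytosolic form, gave 50113, 50298, 75609 and 79793, with log2 fold changes of −0.33 and −0.49.

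Peroxiredoxins remove hydrogen peroxide with the help of thioredoxin or glutathione. PRDX4, the form of the endoplasmic reticulum, had signals of 17387, 4978, 15360 and 13457. The TR9_MeTA14 +Tet array was the lowest of the 4, and PRDX4 was 4.40-fold lower with tetracycline in TR9_MeTA14 (log2 −2.14) and 1.69-fold lower in TR15_MeTA5 (log2 −0.76). PRDX6, which uses glutathione, gave 32752, 13404, 42182 and 46381. Again the TR9_MeTA14 +Tet array stood apart, and PRDX6 was 3.08-fold lower in that line (log2 −1.62), with a log2 fold change of −0.43 in TR15_MeTA5. The mitochondrial PRDX3 (log2 −0.30 and −0.59) and the abundant cytosolic PRDX1 (log2 −0.08 and −0.17) were under 2-fold in both lines. PRDX5 had log2 fold changes of 0.54 and −0.44, and under 2 of 4 other scalings it reached 2-fold higher in TR9_MeTA14, at most 2.25-fold.

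Superoxide dismutases turn superoxide into hydrogen peroxide, which catalase splits. SOD3, the extracellular dismutase, had signals of 1782, 4158, 82.1 and 318. Both TR15_MeTA5 arrays were far below both TR9_MeTA14 arrays, and in each line the +Tet array was the higher. SOD3 was 1.85-fold higher with tetracycline in TR9_MeTA14 (log2 0.89) and 2.62-fold higher in TR15_MeTA5 (log2 1.39). The limma estimate was 1.14 with a standard error of 0.28 and an adjusted p of 0.163. With normexp the change in TR15_MeTA5 was 1.76-fold. SOD1, the cytosolic dismutase, and CAT, catalase, were under 2-fold in both lines, at log2 −0.24 and −0.45 in TR9_MeTA14 and −0.40 and −0.45 in TR15_MeTA5.

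The mu-class glutathione S-transferases, which join glutathione to electrophiles, diverged within their cluster. RefSeq places GSTM4, GSTM2, GSTM1, GSTM5 and GSTM3 in this order with 0 other genes between them. GSTM4 had signals of 7.74, 118, 3.07 and 105. Neither -Tet array was well above background, and both +Tet arrays were. GSTM4 was at least 6.08-fold higher with tetracycline in TR9_MeTA14 (log2 at least 2.60) and at least 4.59-fold higher in TR15_MeTA5 (log2 at least 2.20). GSTM4 entered limma through its +Tet arrays alone. The limma estimate, which uses the signals below background as they are and is no bound, was 4.07. Its standard error was 0.43 and its adjusted p by limma was 0.031. Over the other settings this adjusted p lay between 0.0079 and 0.043, with the exception of the filter that asks for signal on all 4 arrays, which GSTM4 does not pass.

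GSTM2 gave 3.29, 43.4, 3.25 and 29.4, and as with GSTM4 only the +Tet arrays were well above background. It was at least 2.23-fold higher in TR9_MeTA14 and at least 1.29-fold higher in TR15_MeTA5. In limma the estimate was 3.0 with a standard error of 0.48 and an adjusted p of 0.069, which passed the threshold with spike-in scaling, without a filter and without an intensity trend. This estimate too uses signals below background as they are. The bound in TR9_MeTA14 stayed past 2-fold under 2 of 4 other scalings and was as low as 1.24-fold. A further GSTM2 probe was not well above background on any array.

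GSTM1 and GSTM3, farther along the cluster, were already well above background without tetracycline. GSTM1 gave 917, 453, 476 and 500, and GSTM3 gave 20744, 9796, 11358 and 12715. For both genes the TR9_MeTA14 +Tet array was the lowest of the 4. GSTM1 was 2.55-fold lower with tetracycline in TR9_MeTA14 (log2 −1.35) and 1.41-fold lower in TR15_MeTA5 (log2 −0.49). GSTM3 was 2.67-fold lower (log2 −1.41) and 1.32-fold lower (log2 −0.40). GSTM5, which is not in the list, gave 60.6, 109, 56.1 and 83.4, with log2 fold changes of 0.52 and 0.01. The mu-class genes are close in sequence, and whether a probe also reads a neighbour was not tested.

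**Figure D2:**
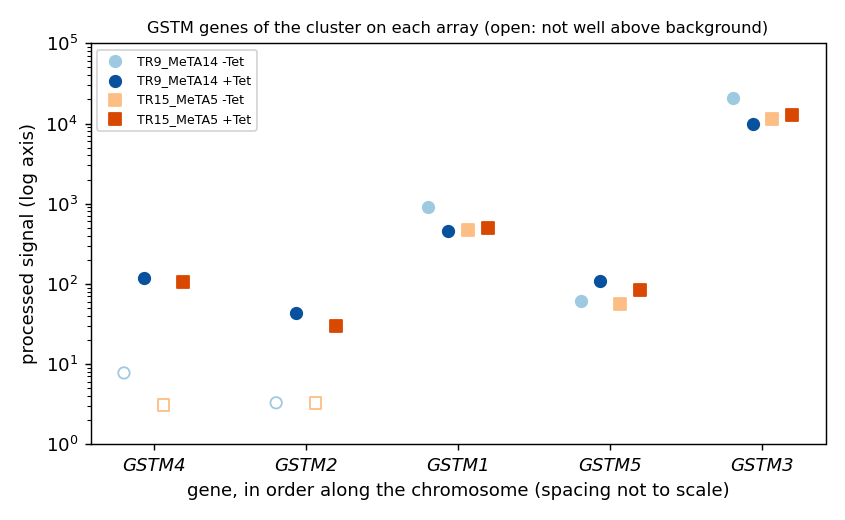
Processed signal (log axis) of the 5 mu-class genes in their order along chromosome 1, not to scale, on each of the 4 arrays. Open symbols were not well above background. GSTM4 and GSTM2 move from open -Tet symbols to filled +Tet symbols in both lines, while for GSTM1 and GSTM3 the TR9_MeTA14 +Tet symbol is the lowest of the 4.

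Of the other cytosolic and mitochondrial transferases, GSTO1, the omega-class form, gave 4369, 2720, 3981 and 4791. It was 2.02-fold lower in TR9_MeTA14 (log2 −1.02), and its log2 fold change was −0.30 in TR15_MeTA5. GSTO1 was just inside the cut-off, and 1 of 4 other scalings kept it there. GSTA4, which conjugates products of lipid peroxidation, was under 2-fold in both lines (log2 −0.85 and −0.57), and so was the kappa-class GSTK1 (log2 0.41 and 0.03).

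MGST1, the abundant transferase of microsomal membranes, had signals of 12491, 2276, 6739 and 6436. The TR9_MeTA14 arrays were the highest and the lowest of the 4. MGST1 was 6.91-fold lower with tetracycline in TR9_MeTA14 (log2 −2.79), the largest decrease in the list, and 1.55-fold lower in TR15_MeTA5 (log2 −0.63). The limma estimate was −1.71 with a standard error of 0.58 and an adjusted p of 0.242. MGST2 (log2 −0.46 and −0.58) and MGST3 (log2 0.04 and −0.32), membrane relatives of MGST1, were under 2-fold in both lines.

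The aldo-keto reductases of the list, which reduce aldehydes and steroids, were at or near background. This does not hold for the whole family, since AKR1A1, AKR7A2 and AKR7A3, which are not in the list, were well above background on every array. AKR1B1, aldose reductase, gave 3.86, 7.56, 9.32 and 23.2, and AKR1C3 gave 7.31, 3.1, 3.35 and 27.2. Each was well above background only on the TR15_MeTA5 +Tet array, with bounds of at least 1.02-fold and 1.19-fold in that line. AKR1C1 gave 3.15, 2.83, 3.12 and 14.6 and was not well above background on any array. The AKR1C genes are close in sequence, and cross-hybridization was not tested.

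Ferritin stores iron in a shell of heavy and light chains. FTH1, the heavy chain, had signals of 111137, 72574, 67387 and 82279 and was 1.93-fold lower with tetracycline in TR9_MeTA14 (log2 −0.95), with a log2 fold change of −0.28 in TR15_MeTA5. The 2 further FTH1 probes gave 1.94-fold and 2.04-fold lower signals in TR9_MeTA14. FTL, the light chain, had log2 fold changes of 0.36 and 0.23.

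**Figure D3:**
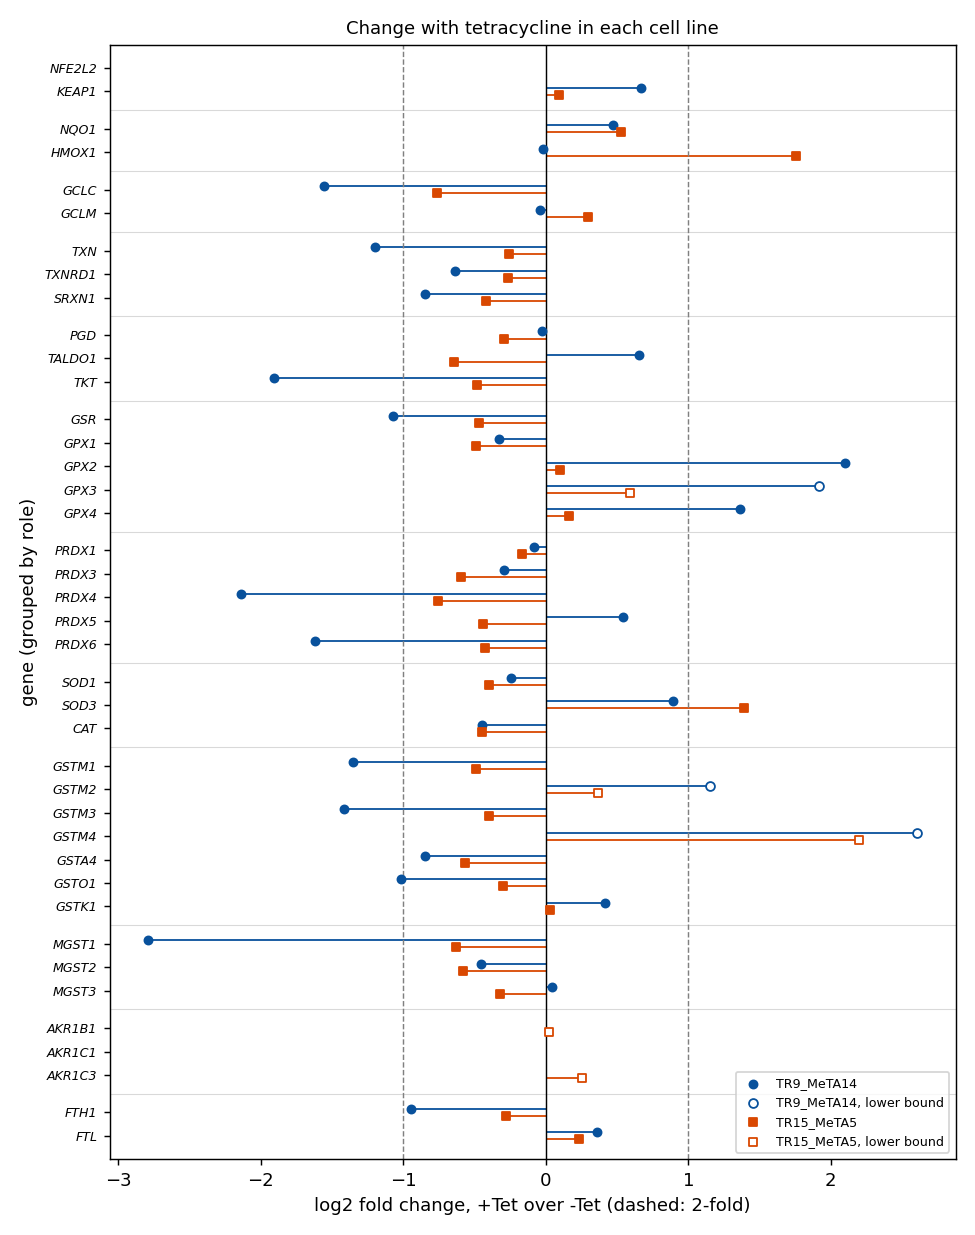
Log2 fold change of +Tet over -Tet for each gene in TR9_MeTA14 (circles) and TR15_MeTA5 (squares), grouped by role; open symbols are lower bounds and dashed lines mark 2-fold. MGST1, PRDX4 and TKT reach furthest to the left in TR9_MeTA14, and GSTM4 lies beyond 2-fold to the right in both lines.

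The changes in TR9_MeTA14 were the more widely spread. Of the 36 members with a fold in both lines, 10 were higher with tetracycline in both and 21 were lower in both. A further 3 were higher in TR9_MeTA14 and lower in TR15_MeTA5, and 2 were the reverse. Of all 13982 genes with a fold in both lines, 3979 were higher in both and 6627 were lower in both. Of the same 13982 genes, 2410 were higher in TR9_MeTA14 and lower in TR15_MeTA5, and 966 were the reverse. No member was at least 2-fold apart in opposite directions, and 20 of the 13982 genes were. The 4 other scalings turned the sign of 6 of 36 members in TR9_MeTA14 and of 13 of 38 in TR15_MeTA5, and 0 of those past 2-fold. The widest shift came from spike-in scaling, which moved the median of all genes in TR15_MeTA5 from −0.16 to 0.28 and that of the members from −0.30 to 0.15. Over the 33 members that were well above background on every array, log2 values had an SD of 1.04 in TR9_MeTA14 and 0.55 in TR15_MeTA5, and Pearson's r between the lines was 0.51 (Spearman's rho 0.61). Over all 12699 such genes the SDs were 1.26 and 0.75 and r was 0.75 (rho 0.65). These correlations are across genes, which are not independent, and each line's points share the same pair of arrays. The change was larger in TR9_MeTA14 for 63.6% of these members and for 73.2% of all such genes.

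**Figure D4:**
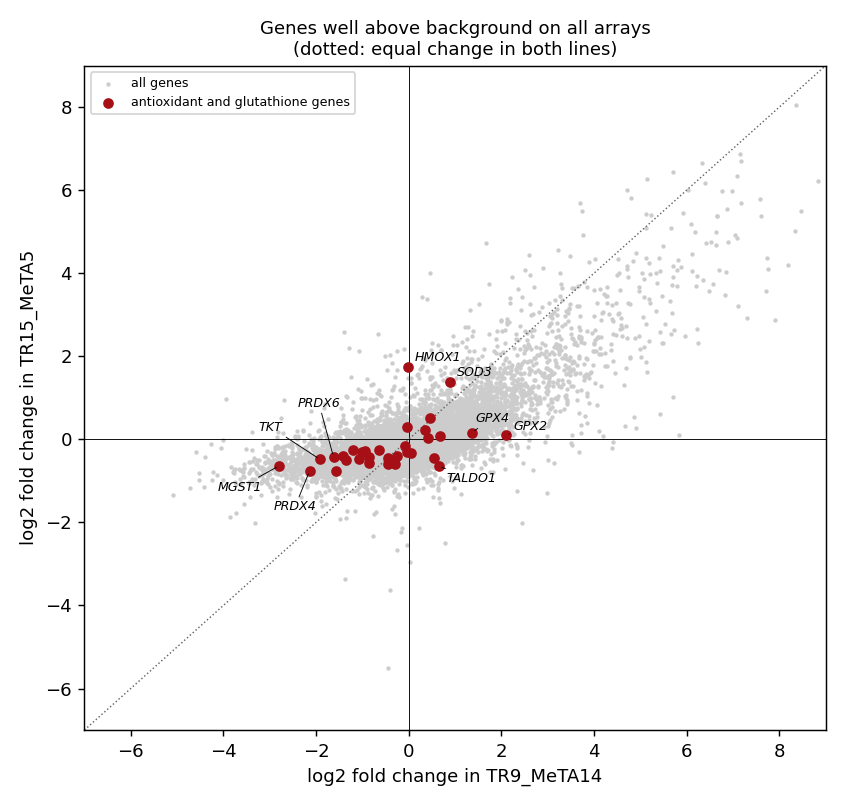
Log2 fold change of +Tet over -Tet in TR15_MeTA5 against that in TR9_MeTA14 for genes well above background on all 4 arrays: 12699 genes in grey, of which the 33 antioxidant and glutathione genes in red. HMOX1 and SOD3 lie above the dotted line of equal change, with increases in TR15_MeTA5. MGST1, PRDX4, TKT and PRDX6, among others, also lie above that line but spread to the left, with smaller decreases in TR15_MeTA5.

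Prostate luminal markers moved as well, and more in TR9_MeTA14. All 8 (KLK3, KLK2, TMPRSS2, FOLH1, KRT8, KRT18, STEAP2 and HOXB13) were well above background on every array, and LNCaP is a luminal line. With tetracycline, 5 of 8 were at least 2-fold lower in TR9_MeTA14 (median log2 −1.64, range −4.00 to 0.24), beside 15.1% of all genes. In TR15_MeTA5, 0 of 8 were (median −0.65, range −0.98 to −0.35), beside 2.21% of all genes. Their summed signals, before scaling, were 289734, 134627, 229838 and 214415. KLK3 alone gave 144067, 47017, 135330 and 123469 of these. Of the basal markers, KRT15 passed the background flag on each array, whereas TP63, KRT5 and KRT14 passed it on none. The 4 leukocyte markers summed to 208, 1423, 216 and 674, with 3 or 4 of them well above background on each array, and 2 of 4 were at least 2-fold higher in each line and 1 lower in TR15_MeTA5. The 5 stromal markers summed to 1063, 1459, 533 and 1294, with 3 or 4 of them well above background. Of these, MYH11 was at least 8.88-fold and 6.37-fold higher with tetracycline in TR9_MeTA14 and TR15_MeTA5, ACTA2 was 2.44-fold lower and 4.60-fold higher, and COL1A2 was not well above background on any array. The part of these markers in the results was not tested.

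Before tetracycline, both lines already differed. Of 33 members measured in both -Tet arrays, GPX1 and PRDX6 were at least 2-fold higher in TR15_MeTA5 (6.06%, beside 8.17% of all genes), and SOD3, NQO1 and HMOX1 were at least 2-fold lower (9.09%, beside 5.19%). SOD3 was 12.9-fold lower in TR15_MeTA5 (log2 −3.69), NQO1 was 3.75-fold lower (log2 −1.91) and HMOX1 was 2.63-fold lower (log2 −1.39). These 3 stayed on the same side of 2-fold under each of the 4 other scalings. GPX1 (log2 1.34) and PRDX6 (log2 1.12) did so under only 1 of them. With 1 array for each line, this comparison has no replicate check.

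Genes below background without tetracycline were counted separately. In each line, 7 members were not well above background on the -Tet array (AKR1B1, AKR1C1, AKR1C3, GPX3, GSTM2, GSTM4 and NFE2L2). With tetracycline, 3 of 7 were well above background in TR9_MeTA14 (42.9%, beside 26.9% of all such genes) and 5 of 7 in TR15_MeTA5 (71.4%, beside 17.7%). GPX3, GSTM2 and GSTM4 did so in both lines, and AKR1B1 and AKR1C3 in TR15_MeTA5. On the TR15_MeTA5 +Tet array, AKR1B1 (23.2), AKR1C3 (27.2) and GSTM2 (29.4) lay just above the floor of 19.2. Further GPX3 and GSTM2 probes were not well above background on any array. These shares rest on 7 genes and were not tested.

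The RefSeq promoter table, with 250 bases before and 50 after each start, held 35 of the 42 genes. Their median was 22 CpG in 300 bases, against 14 over 27305 promoters. Counted over genes and not promoters, 47.6% had fewer than 22 CpG, so the members' median lay near the middle of all genes. Genes on either side of the comparison had many and few CpG: GSTM4 and GPX3 each had 21, GPX4 had 39 and GPX2 had 4, while among the genes lower in TR9_MeTA14, PRDX4 had 35 and GSTM3 had 1. Across the members, Spearman's rho of CpG count with log2 fold change was −0.11 in TR9_MeTA14 (29 genes) and −0.23 in TR15_MeTA5 (31 genes), against −0.04 and 0.01 over all genes, as a description. The core letters of the antioxidant response element, TGACNNNGC on either strand, were found in 7 of 35 (GCLM, TXNRD1, PGD, GPX2, GSTM1, GSTA4 and GSTO1), or 20%, and in 13.6% of all promoters. The latter share counts promoters and not genes, and no share over genes was computed for these letters. A match of these letters is not a bound site.

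A further 70 genes of the same pathways were listed, of which 67 had a probe. Of these, 8 of 57 passed 2-fold upwards and 13 downwards in TR9_MeTA14, and 2 were higher and 2 lower of 56 in TR15_MeTA5. Over all genes, 16.8% were higher and 15.1% lower in TR9_MeTA14, and 9.77% and 2.21% in TR15_MeTA5. The median log2 fold changes of the further genes were −0.31 and −0.25, against −0.06 and −0.16 over all genes. In limma, 2 of 56 were called higher and 0 lower, beside 2.6% and 0.0132% of all probes. An unadjusted p under 0.05 by limma was found for 13 (23.2%), beside 19.5% of all probes.

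Those called in both lines by fold were 2 higher and 2 lower of 56, while 8.2% and 0.837% of all genes were. GSTP1, the pi-class transferase, gave 22.3, 517, 17.9 and 564 (log2 4.20 and at least 4.41, adjusted p 0.015 by limma). ABCC3, an exporter of glutathione conjugates, gave 3.85, 55.5, 3.78 and 51.7 (log2 at least 1.51 and 1.18, adjusted p 0.043 by limma), and normexp took its bounds to 0.88 and 0.49. A further ABCC3 probe gave log2 bounds of 2.37 in TR9_MeTA14 and 0.82 in TR15_MeTA5, the latter under 2-fold. As for GSTM4, neither -Tet array of ABCC3 was well above background, so its limma p also rests on signals below background.

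SLC7A11, the cystine importer that feeds glutathione synthesis, gave 3685, 137, 414 and 243. The TR9_MeTA14 -Tet array was far above the other 3, and SLC7A11 was 33.8-fold lower with tetracycline in TR9_MeTA14 and 2.52-fold lower in TR15_MeTA5 (log2 −5.08 and −1.34, adjusted p 0.215 by limma). ME1, malic enzyme, which makes NADPH, gave 413, 95.9, 111 and 81.2 (log2 −2.44 and −1.02, adjusted p 0.177 by limma). Spike-in scaling brought SLC7A11 and ME1 under 2-fold in TR15_MeTA5, to log2 −0.89 and −0.57, and ME1 stayed past 2-fold there under 2 of 4 other scalings.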

How the data were processed

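MeTA-array data covered 4 arrays, 1 per condition. Cy3-labeled cRNA was hybridized by the authors to Agilent 4x44K human arrays on 1 slide, and the deposited intensity of each spot is the processed signal of Feature Extraction (10.7.3.1 per the file headers, 9.5.1 in the submitters' processing notes), background-subtracted and not normalized between arrays. A deposited series table held the same values at all 44495 spots of each array.

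Spots marked as outliers (301 to 395 per array) were left out, log2 signals were averaged per probe, and each array's 75th percentile was subtracted. RefSeq accessions (GRCh38.p14) paired 74.5% of 34127 probes with 1 gene, 19483 genes in all, while the array was designed on hg19. Members and lists were chosen with earlier results of these data known. Every member is accounted for, and signals on each array are given for those at least 2-fold changed, those called by limma, NFE2L2 and KEAP1. Other pathway genes are named when called in both lines. Technical precision came from 684 to 756 probes of 10 spots per array.

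The limma 3.58.1 fit (R 4.3.3, cell line block, intensity trend) took probes that passed the background flag on 2 or more arrays and was tested on simulated data. Other steps used Python 3.11.15, numpy 2.4.6 and pandas 2.3.3. Alternatives were quantile normalization, median and spike-in scaling, normexp (offset 50) with quantile normalization, all spots kept, filters, plain ratios, the mean over probes, other cut-offs, and limma without block or trend. Some luminal marker genes are not reported here and were left out of that list's values. Protein identity between paralogs was planned and not analysed here.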

Additional observations from a re-analysis of the deposited data

Results flagged for a closer look

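TALDO1 and PRDX5 were the members whose log2 fold changes had opposite signs in both lines with each larger than technical error. TALDO1 had 0.65 in TR9_MeTA14 and −0.64 in TR15_MeTA5, and both signs were the same under the 4 other scalings. PRDX5 had 0.54 in TR9_MeTA14 and −0.44 in TR15_MeTA5, and the second was 0.00 with spike-in scaling. The difference between the lines was not tested, since 1 array per condition leaves no residual degree of freedom for it.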

How the results depend on the processing

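The only pairing was by cell line, each with 1 -Tet and 1 +Tet array. The limma fit set the arrays of each line against each other through its cell line block, and without this block it also called 1 member higher and 0 lower. With 1 array per condition none was left out. No gene called at 2-fold or by limma changed sign under any alternative, whereas the members' median changed sign with normexp in TR9_MeTA14 and with spike-in scaling in TR15_MeTA5. Of the values for single genes, 386 stayed on their side of the threshold or within technical error, 86 moved by more than technical error, and 5 passed the limma threshold only under an alternative (GPX3 with spike-in scaling and without a filter, GSTM2 with these and without a trend). A shift of a whole array by another scaling moves each of its genes alike by construction, and other causes were not tested.

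The median log2 fold change of the members in TR9_MeTA14 (−0.27) was −0.054 with quantile normalization, −0.13 with spike-in scaling and 0.015 with normexp. In TR15_MeTA5 (−0.30) it was −0.12, 0.15 and −0.092 under these, and −0.40 with a filter on all 4 arrays. Of members at least 2-fold higher in TR9_MeTA14 (5), 2 were counted under that filter, which removes genes below background without tetracycline, and there were 8 at 1.5-fold and 3 at 3-fold. Of those lower (10), 4 passed 3-fold. In TR15_MeTA5 the count of higher genes (3) was 7 with plain ratios, and that of lower genes (0) was 5 at 1.5-fold. In both lines, the count of higher genes (1) was 3 with spike-in scaling, 3 with plain ratios, 3 at 1.5-fold and 0 under that filter, while that of lower genes (0) was 3 at 1.5-fold. Between untreated lines, the count higher in TR15_MeTA5 (2) was 0 with quantile normalization, spike-in scaling, normexp or a 3-fold cut-off and 6 at 1.5-fold, and the count lower (3) was 13 with spike-in scaling and 5 at 1.5-fold. The limma count of higher members (1) was 3 with spike-in scaling, 3 without a filter, 2 without a trend and 0 with the filter on all arrays.

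Background limits the folds of AKR1B1, AKR1C1, AKR1C3, GPX3, GSTM2, GSTM4 and NFE2L2, which were not well above background without tetracycline, and having 4 arrays limits the precision of all. With normexp the bounds of GSTM4 were log2 1.06 and 1.27.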
